A study of Mus musculus with 9 samples.

Results

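The secretory pathway and ER folding genes described here are 44 genes of the machinery that brings proteins into the endoplasmic reticulum (ER), folds them, disposes of those that fail and exports the rest. They were chosen by name for their known functions and not by any measured value: 13 ER chaperones and folding enzymes, 4 genes of ER-associated degradation (ERAD), 6 stress sensors and transcription factors, 7 translocon subunits, 10 genes of the COPII coat, and the 3 KDEL receptors with Mia3. All 44 were found among the 40526 genes measured at every stage, and all 44 were abundant enough to be tested. RNA was sequenced from calvarial osteoblasts in primary culture, bone-forming cells released from the skulls of C57BL/6 mouse pups (postnatal day 2-3 in the sample records; C57BL/6J in the study's methods). The day 0 group was confluent and undifferentiated, whereas the day 4 and day 7 groups had spent 4 or 7 days in mineralization medium, which supplies β-glycerol phosphate together with ascorbic acid. There were 3 biological replicates of each stage and 9 libraries in all, and the labels name no transgene or mutation for any group. The study also drew cells from ColI-GFP pups, which carry a Col1a1 promoter reporter, and whether any were sequenced was not stated. Cells of all stages were lifted with trypsin, and by the labels collagenase I was applied beforehand to mineralized cultures only. The study's methods, where they describe the lifting of day 4 and day 7 cells for replating, give both a collagenase I step, longer at day 7, so the effects of the stage and of the harvest cannot be told apart. Pups of both sexes were used, and whether a replicate pooled several pups was not stated.

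Secreted and membrane proteins enter the ER through the Sec61 channel while they are being made, are folded and disulphide-bonded by lumenal chaperones, and leave in COPII vesicles, while KDEL receptors return escaped chaperones from the Golgi. When unfolded protein accumulates, the sensors encoded by Ern1 (IRE1α), Atf6 and Eif2ak3 (PERK) start the unfolded protein response, which raises the transcription of chaperone and ERAD genes through XBP1 and ATF6. Osteoblasts are professional secretory cells that lay down a matrix dominated by type I collagen, and human and mouse mutations in Creb3l1, Sec24d, Sec23a and Mia3 impair bone or collagen secretion.

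The labels of the stages were checked first. Of 8 osteoblast markers, 7 rose from day 0 to day 7, and the exception was the lineage regulator Runx2 (log2 fold change 0.23, limma adjusted p = 0.268; 0.34 with adjusted p = 0.037 under median-of-ratios scaling). Ibsp, a mineral-binding matrix protein, stood at 3.82 ± 0.644 RPKM on day 0, 1158 ± 162 on day 4 and 2808 ± 442 on day 7 (mean ± SD, n = 3). RPKM are reads scaled to the length of the gene and to the total of the library, the scale on which genes are compared with each other. Depth was 7741204 to 14013219 reads on genes at day 0, 32820610 to 37306090 at day 4 and 10675858 to 15622755 at day 7. Day 0 replicate 3 stood apart: it was the shallowest library, and 19.8% of its reads lay on 6 gene models that lie in or carry ribosomal RNA sequence, against 5.26% and 5.45% in the other day 0 libraries and 0.594% to 12.4% at day 7. It was the lowest of the 3 day 0 libraries for 38 of the 44 genes. Markers of other cells also moved. All 9 macrophage markers that could be tested were higher at day 7, with a summed level of 48.8 to 82.4 RPKM at day 0 and 97.99 to 128.7 at day 7. Of 10 markers of plasma and B cells, which have very high secretory gene expression, 1 was abundant enough to be tested and did not pass, and Ms4a1 and Mzb1 had no read in any library. The part of macrophages in the results below was not tested, and in bulk RNA a change in the number of cells of a type cannot be told apart from a change in the RNA of each cell.

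The promoters of these genes are shown first, because several carry elements through which the unfolded protein response is known to act. RefSeq promoter windows of the GRCm38.p6 assembly, from 250 bases before to 50 bases after the start site, were matched for 37 of the 44 genes. Both strands were searched for the ER stress response element (ERSE: CCAAT, any 9 bases, CCACG; known to be bound by NF-Y with ATF6), for ERSE-II (ATTGG, any 1 base, CCACG), for the core of the unfolded protein response element (UPRE, TGACGTGG) and for the cyclic AMP response element core (CRE, TGACGTCA). ERSE and ERSE-II end in the letters CCACG, with which the reverse complement of the UPRE core begins, but no match overlapped another. ERSE occurred in 7 of the 37 genes and in 29 of 17492 coding genes (0.166%; 0.119% of all 32851 windows). The 7 were Hspa5, Hsp90b1, Calr, Canx, Pdia6, Dnajc3 and Syvn1, so 6 of the 11 matched chaperones carried one. ERSE-II occurred in Herpud1 and Dnajb11 and in 0.0629% of coding genes. The UPRE core occurred in Kdelr3, Sec24d and Sec23a and in 0.823% of coding genes, whereas the CRE core occurred in none of the 37 and in 2.54% of coding genes. A match describes letters in a window and does not show that a factor binds there.

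The matches that lie before the start site are printed 5′ to 3′ on the strand of the gene, with the element in capitals, so that its place and its neighbours can be compared between the chaperone genes, the ERAD genes and the trafficking genes. In Calr, in the second Hsp90b1 site and in Kdelr3 the element reads on the opposite strand, and the capitals show its reverse complement. Hspa5 and Sec24d have shorter flanks because GENCODE annotates an earlier exon there.
Hspa5 ERSE, chr2:34772020-34772048, forward strand: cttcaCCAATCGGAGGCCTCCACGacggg
Hsp90b1 ERSE, chr10:86705618-86705676, reverse strand: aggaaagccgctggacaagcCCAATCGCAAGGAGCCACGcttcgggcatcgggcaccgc
Hsp90b1 ERSE, chr10:86705513-86705571, reverse strand: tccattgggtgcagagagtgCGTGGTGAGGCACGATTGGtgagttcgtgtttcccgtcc
Calr ERSE, chr8:84847055-84847113, reverse strand: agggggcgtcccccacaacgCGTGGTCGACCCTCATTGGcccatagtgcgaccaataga
Canx ERSE, chr11:50325780-50325838, reverse strand: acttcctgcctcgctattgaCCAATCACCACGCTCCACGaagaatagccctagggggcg
Pdia6 ERSE, chr12:17266471-17266529, forward strand: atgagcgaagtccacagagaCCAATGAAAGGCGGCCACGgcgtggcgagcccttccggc
Dnajc3 ERSE, chr14:118937807-118937865, forward strand: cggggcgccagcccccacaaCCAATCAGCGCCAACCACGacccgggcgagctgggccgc
Syvn1 ERSE, chr19:6046512-6046570, forward strand: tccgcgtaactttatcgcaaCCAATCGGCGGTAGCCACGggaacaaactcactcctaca
Herpud1 ERSE-II, chr8:94386357-94386407, forward strand: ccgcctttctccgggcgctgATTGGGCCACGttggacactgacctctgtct
Sec24d UPRE core, chr3:123267465-123267482, forward strand: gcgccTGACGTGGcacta
Kdelr3 UPRE core, chr15:79516358-79516405, forward strand: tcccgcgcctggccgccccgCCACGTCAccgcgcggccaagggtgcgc

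**Figure D1:**
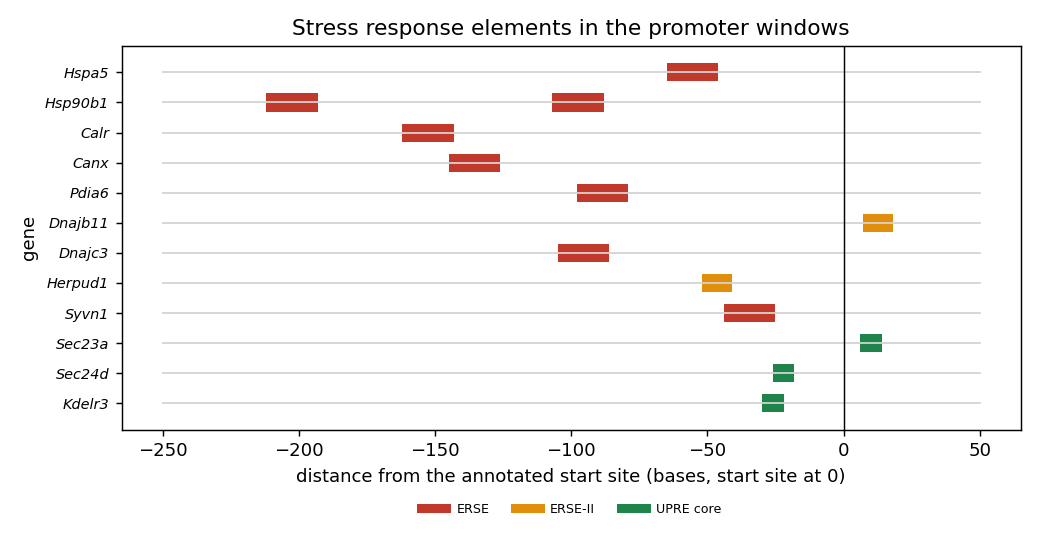
Position of the response elements in the promoter windows of the 12 genes that carry one. The x axis is the distance in bases from the RefSeq start site, grey lines are the 300-base windows, and coloured boxes are ERSE, ERSE-II and UPRE core matches; Hsp90b1 has 2 ERSE, and the Dnajb11 and Sec23a matches lie after the start site.

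From day 0 to day 7, 18 of the 44 genes rose and 0 fell. Among all 12712 genes tested, 12.6% were higher and 18.6% lower. The test was limma, which fits a linear model per gene and borrows variance across genes, on log2(CPM + 0.5) at a Benjamini-Hochberg adjusted p of 0.05, where CPM are reads scaled to the library total. The median log2 fold change of the 44 genes was 0.33, that is 0.44 above the median of all genes tested, which was −0.11. Without adjustment, 22 had risen and 1 had fallen at p under 0.05. The count depends on how libraries are scaled. Median-of-ratios scaling, which shifts the median of all genes to −0.01, gave 30 higher and 1 lower (22.4% and 20.5% of all genes). On the recovered reads edgeR gave 30 and 1, DESeq2 32 and 1, and voom with quality weights 33 and 2. Among all 12712 genes these tools called 2818, 2581 and 3148 higher and 2650, 2329 and 2972 lower. By group, the genes that rose were 6 of 7 in the translocon, 4 of 13 chaperones, 2 of 4 in ERAD, 4 of 6 sensors and factors, 0 of 10 in the COPII coat, and 2 of the 4 KDEL receptor and Mia3 genes.

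**Figure D2:**
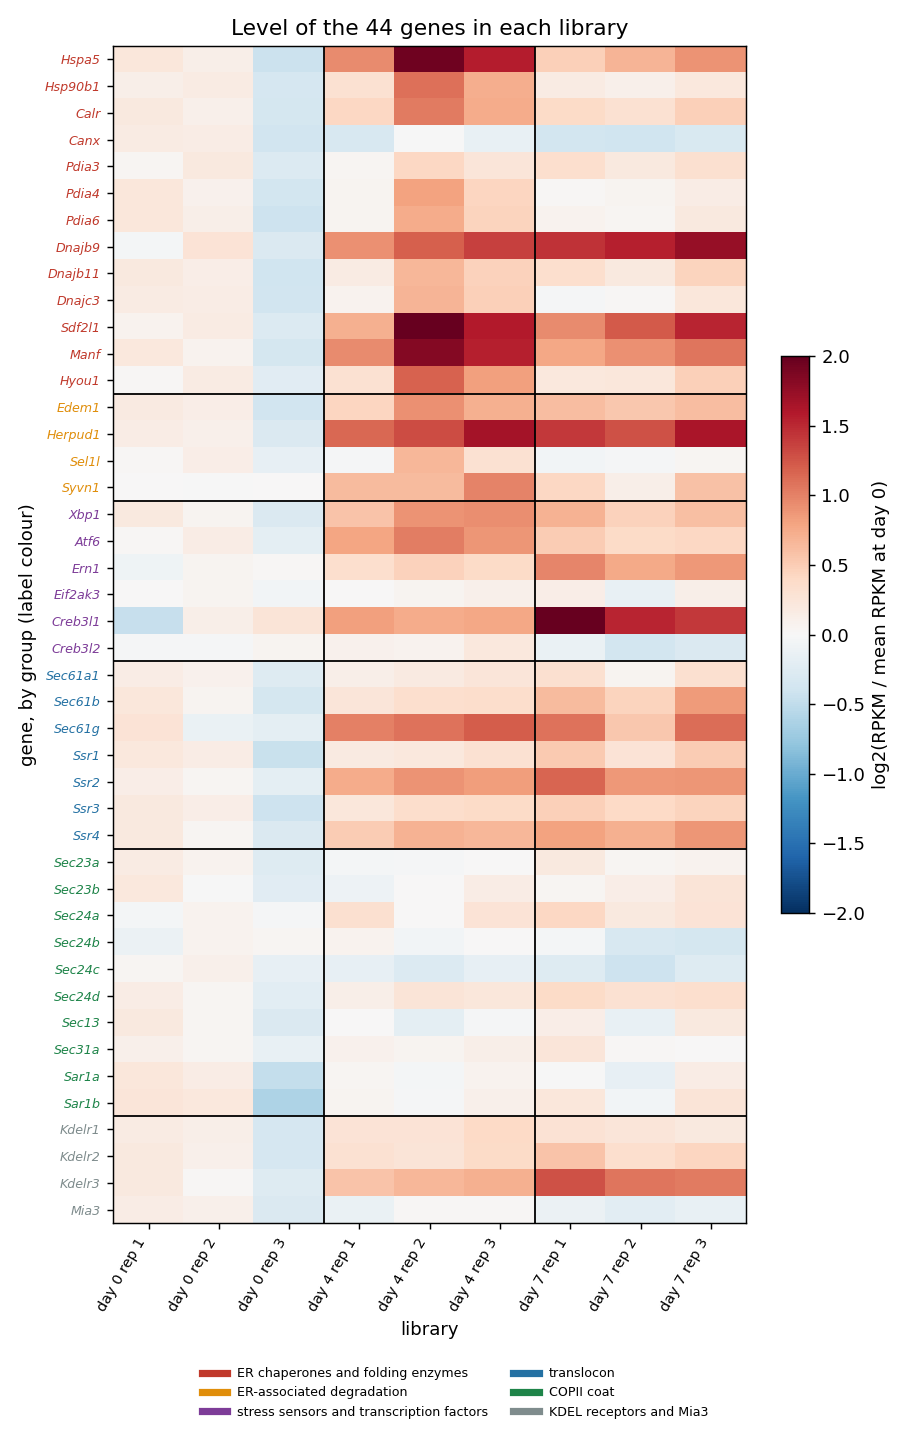
Level of each of the 44 genes (rows, label colour by group) in each of the 9 libraries (columns), as the log2 ratio of RPKM to the mean of day 0; colours stop at 2. Day 0 replicate 3 is pale blue almost throughout, most COPII genes stay near white, and the darkest day 4 cells are the chaperones Hspa5, Sdf2l1 and Manf in replicate 2.

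**Figure D3:**
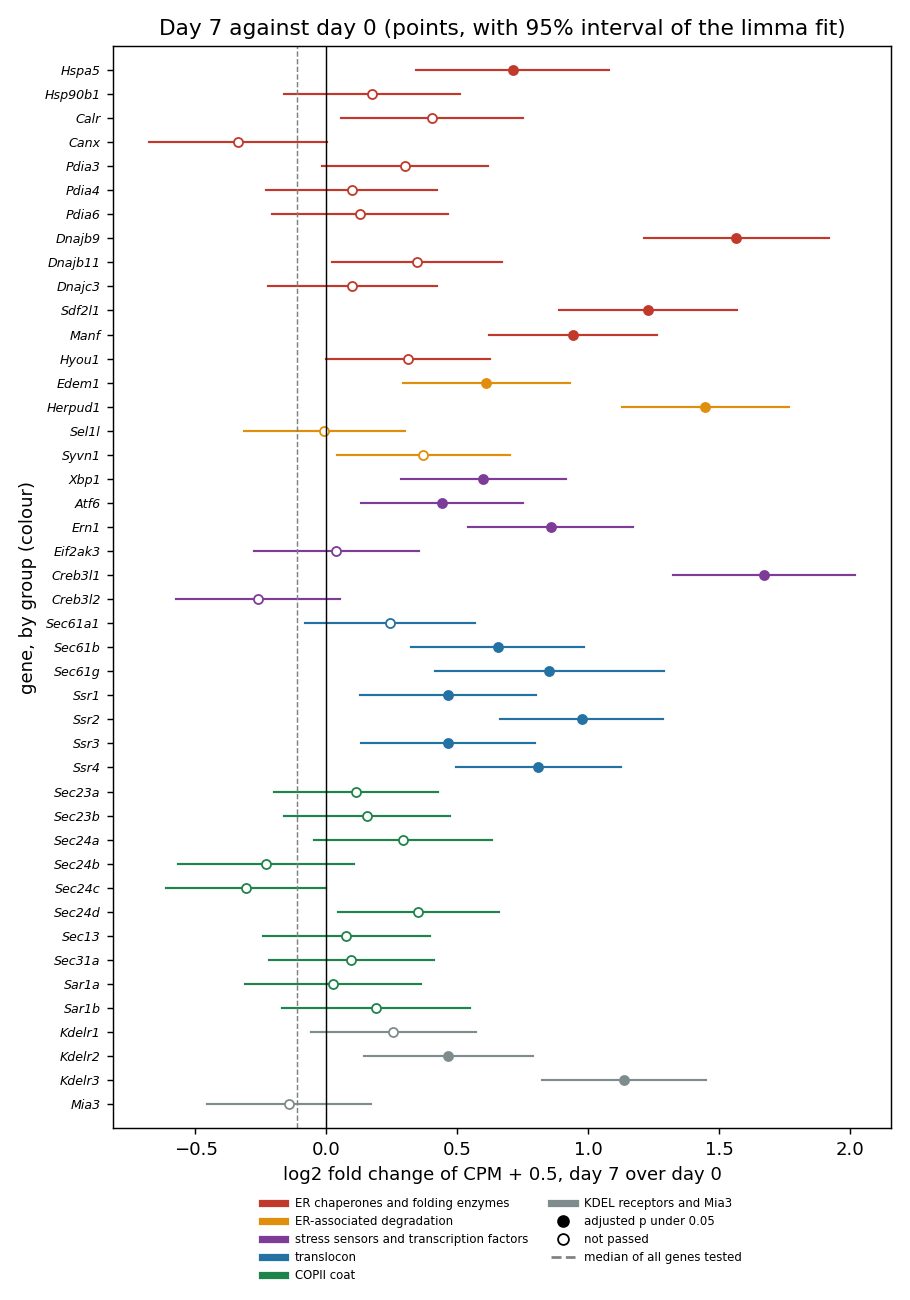
Log2 fold change of CPM + 0.5 from day 0 to day 7 (x axis) for the 44 genes (rows, colour by group), with the 95% interval of the limma fit as a line. Filled points passed an adjusted p of 0.05, open points did not, and the dashed line is the median of all genes tested; the 18 filled points lie to the right of 0 and none is a COPII gene.

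Of the 7 translocon genes 6 rose and the seventh, Sec61a1, did not pass. Median-of-ratios scaling called all 7 higher, Sec61a1 included (2843 of all 12712 genes). The RPKM table gave 4 higher (1530 of all 12712 genes). They encode the Sec61 channel and the translocon-associated protein (TRAP) complex, whose subunits Ssr1 to Ssr4 help some nascent chains to enter. The median log2 fold change of the 7 genes was 0.65, and all 4 TRAP subunits passed the test. Values are given for replicates 1, 2 and 3 in that order here and below. Ssr2, the β subunit (chr3:88575876-88588419), was read at 147, 138 and 117 RPKM on day 0, 224, 249 and 239 on day 4, and 299.5, 244 and 248 on day 7. All day 4 and day 7 libraries lay above day 0 and overlapped each other, and day 7 was 1.97-fold day 0 (log2 fold change 0.97 ± 0.15 (SE), limma adjusted p = 1.55e-06). The exons of Ssr2 overlap those of Gm10704 on the opposite strand over 12.8% of their length, and the strand setting of the counting was not given in the sources used here. Ssr4, the δ subunit (chrX:73787028-73790830), stood at 50.9, 45.7 and 36.3 RPKM on day 0, 62.9, 71.6 and 70.3 on day 4, and 77.4, 72.2 and 81.6 on day 7. Its stages lay in the order of time without overlap (log2 fold change 0.81 ± 0.16 (SE), limma adjusted p = 4.83e-05).

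Sec61g, the small γ subunit of the channel (chr11:16500530-16508484), was listed at 2.03, 1.53 and 1.47 RPKM on day 0, 3.37, 3.56 and 3.88 on day 4, and 3.53, 2.43 and 3.63 on day 7. Both later stages were above day 0 in every library and overlapped each other, with the day 7 libraries spread widely (log2 fold change 0.85 ± 0.22 (SE), limma adjusted p = 0.00182). Sec61b, the β subunit, ranged over 33.0 to 49.0 RPKM on day 0, 49.4 to 53.2 on day 4 and 56.8 to 75.3 on day 7, so its stages did not overlap (log2 fold change 0.65 ± 0.16 (SE), limma adjusted p = 0.00154). Sec61b and Sec61g share 17.4% and 14.8% of their 50-base stretches with pseudogene copies, so their levels are uncertain under counting of uniquely aligned reads. Sec61a1, the pore-forming subunit, ranged over 62.6 to 82.9 RPKM on day 0, 81.1 to 88.6 on day 4 and 78.3 to 93.8 on day 7. Its stages overlapped, and it did not pass (log2 fold change 0.24 ± 0.16 (SE), limma adjusted p = 0.265). Ssr1 and Ssr3, the α and γ subunits, had log2 fold changes of 0.46 and 0.46 (limma adjusted p = 0.0284 and 0.0271). Both calls were lost with the RPKM table (adjusted p = 0.0556 and 0.0538), with no filter on level (0.085 and 0.0896), without day 7 replicate 1 (0.137 and 0.109) and without day 7 replicate 3 (0.127 and 0.0986). Ssr1 also lost its call without day 0 replicate 3 (log2 fold change 0.25, limma adjusted p = 0.0571), and Ssr3 without day 7 replicate 2 (0.48, adjusted p = 0.0556).

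Among the chaperones and folding enzymes, 4 of 13 were higher at day 7: Hspa5, Dnajb9, Sdf2l1 and Manf. The median log2 fold change of all 13 was 0.31. Hspa5, which encodes BiP, the lumenal Hsp70 that also holds the sensors inactive (chr2:34771970-34777547), had 432, 401 and 273 RPKM on day 0, 710.2, 1418 and 1099 on day 4, and 516, 589 and 686 on day 7. The stages did not overlap: day 4 was highest, 2.92-fold day 0 by the means, and day 7 lay between them (log2 fold change 0.71 ± 0.18 (SE), limma adjusted p = 0.00197). Dnajb9, the J-domain co-chaperone ERdj4 (chr12:44205559-44210326), had 7.11, 8.74 and 5.95 RPKM on day 0, 13.6, 16.7 and 18.7 on day 4, and 19.8, 21.3 and 24.4 on day 7. Its rise was the largest of the 13, and it was the only chaperone whose stages lay in the order of time without overlap (log2 fold change 1.56 ± 0.18 (SE), limma adjusted p = 3.97e-10). About 5.5% of its 50-base stretches are shared with the pseudogene Gm6568.

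Sdf2l1, a partner of the lumenal J proteins (chr16:17130138-17132383), had 25.9, 27.9 and 20.6 RPKM on day 0, 40.6, 100.3 and 74.3 on day 4, and 47.7, 58.4 and 71.0 on day 7. All later libraries exceeded day 0, and the day 7 values fell within the range of day 4 (log2 fold change 1.23 ± 0.17 (SE), limma adjusted p = 7.49e-08). Manf, a lumenal cofactor of BiP that can also be secreted (chr9:106838312-106891979), had 36.9, 33.4 and 25.0 RPKM on day 0, 61.1, 114 and 93.6 on day 4, and 54.5, 60.2 and 67.0 on day 7. Again every later library exceeded day 0, while day 4 replicate 1 lay within the day 7 range (log2 fold change 0.94 ± 0.16 (SE), limma adjusted p = 5.31e-06); 9.25% of its exonic length overlaps other genes. Hsp90b1, which encodes the lumenal Hsp90 GRP94 (chr10:86690209-86705509), had 214, 222 and 156 RPKM on day 0, 243, 423 and 328 on day 4, and 219.8, 211 and 229 on day 7. Day 4 lay above both other stages, which overlapped, and the gene did not pass between day 0 and day 7 (log2 fold change 0.17 ± 0.17 (SE), limma adjusted p = 0.462). Its exons overlap other genes over 15.7% of their length.

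The other 8 members did not pass. The lectin chaperone Calr ranged over 300.2 to 437 RPKM on day 0, 511 to 781 on day 4 and 471 to 529 on day 7, with both later stages above day 0 (log2 fold change 0.40 ± 0.17 (SE), limma adjusted p = 0.0711). Its membrane-bound relative Canx ranged over 164 to 239 RPKM on day 0, 172 to 212 on day 4 and 161 to 172 on day 7 and was the chaperone with the lowest fold change (log2 fold change -0.34 ± 0.17 (SE), limma adjusted p = 0.126). The protein disulphide isomerases Pdia3, Pdia4 and Pdia6 had log2 fold changes of 0.30, 0.10 and 0.13. The J-domain proteins Dnajb11 and Dnajc3 had 0.35 and 0.10, and Hyou1, a lumenal nucleotide exchange factor for BiP, had 0.31, all 6 with limma adjusted p from 0.098 to 0.698. Under median-of-ratios scaling 9 of the 13 chaperones were higher and 0 lower (22.4% and 20.5% of all genes).

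In ERAD, 2 of 4 genes were higher at day 7 and 3 of 4 exceeded day 0 at day 4 in every library (21.1% of the 12710 genes compared on RPKM did so). Herpud1, a membrane scaffold of the HRD1 retrotranslocation complex (chr8:94386438-94395377), had 71.4, 68.6 and 52.7 RPKM on day 0, 142, 159 and 204 on day 4, and 171, 155 and 199 on day 7. The later stages were both well above day 0 and overlapped each other (log2 fold change 1.45 ± 0.16 (SE), limma adjusted p = 1.92e-10). Edem1, which trims mannose from glycoproteins bound for degradation (chr6:108828641-108859356), had 21.9, 21.1 and 14.7 RPKM on day 0, 25.9, 36.3 and 31.4 on day 4, and 29.5, 27.8 and 29.5 on day 7. Its day 7 values fell inside the day 4 range and above day 0 (log2 fold change 0.61 ± 0.16 (SE), limma adjusted p = 0.00224). Syvn1, the ubiquitin ligase HRD1 itself, ranged over 6.90 to 7.04 RPKM on day 0, 10.8 to 13.9 on day 4 and 7.59 to 10.5 on day 7. It was highest at day 4 in every library but did not pass at day 7 (log2 fold change 0.37 ± 0.16 (SE), limma adjusted p = 0.0824). Median-of-ratios scaling called Syvn1 higher at day 7 (22.4% of all genes). Sel1l, the HRD1 partner, ranged over 27.8 to 34.2 RPKM on day 0, 30.8 to 49.2 on day 4 and 29.9 to 32.1 on day 7 with overlapping day 0 and day 7 values (log2 fold change -0.01 ± 0.15 (SE), limma adjusted p = 0.976).

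Among the sensors and transcription factors 4 of 6 rose. Of the pair of Creb3-like factors held in the ER membrane, Creb3l1 rose and Creb3l2 did not pass. Creb3l1 (OASIS), a membrane-bound factor known to drive Col1a1 transcription in osteoblasts (chr2:91982328-92024502), had 13.0, 19.5 and 21.4 RPKM on day 0, 31.7, 29.9 and 30.6 on day 4, and 72.6, 51.5 and 48.0 on day 7. The stages lay in the order of time without overlap, it had the largest fold change of the 44 genes, and day 0 replicate 1 was its lowest library (log2 fold change 1.67 ± 0.17 (SE), limma adjusted p = 3.91e-11). Creb3l2 (BBF2H7), the relative known for its part in cartilage matrix secretion (chr6:37327255-37442146), had 8.56, 8.61 and 9.02 RPKM on day 0, 9.24, 9.20 and 10.1 on day 4, and 8.0, 6.77 and 7.11 on day 7. Day 4 was the highest and day 7 the lowest stage without overlap, within a narrow range, and the gene did not pass (log2 fold change -0.26 ± 0.16 (SE), limma adjusted p = 0.212).

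Ern1, which encodes the sensor IRE1α that splices Xbp1 mRNA (chr11:106394650-106487852), had 4.59, 5.07 and 4.98 RPKM on day 0, 6.18, 6.70 and 6.34 on day 4, and 9.56, 8.22 and 8.90 on day 7. The stages lay in the order of time without overlap (log2 fold change 0.86 ± 0.16 (SE), limma adjusted p = 2.05e-05). Xbp1, the target of that splicing (chr11:5520659-5525893), had 51.0, 46.6 and 36.5 RPKM on day 0, 66.3, 83.1 and 85.6 on day 4, and 72.2, 61.6 and 68.0 on day 7. Both later stages were above day 0 and overlapped each other (log2 fold change 0.60 ± 0.16 (SE), limma adjusted p = 0.0023); gene-level values do not separate spliced from unspliced Xbp1. Atf6, the sensor that is itself cleaved into a transcription factor (chr1:170704674-170867771), had 9.94, 10.8 and 8.49 RPKM on day 0, 16.8, 19.8 and 18.0 on day 4, and 13.9, 12.7 and 13.0 on day 7. Day 4 was highest, and day 7 lay between day 4 and day 0 without overlap (log2 fold change 0.44 ± 0.15 (SE), limma adjusted p = 0.0237). That call was lost without any of the day 7 libraries (adjusted p = 0.113, 0.0591 and 0.096 without replicates 1, 2 and 3) and with the replicate number as a block (0.0545). Eif2ak3, the sensor kinase PERK that slows translation (chr6:70844515-70905245), had 11.1, 11.4 and 10.7 RPKM on day 0, 11.1, 11.4 and 11.9 on day 4, and 12.1, 10.04 and 12.02 on day 7. All 3 stages overlapped (log2 fold change 0.04 ± 0.16 (SE), limma adjusted p = 0.883), with a 95% interval of the log2 fold change from −0.28 to 0.35.

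None of the 10 COPII genes passed limma in either direction, although Sec24d was higher and Sec24c lower before adjustment (1 each at p under 0.05), and their median log2 fold change was 0.104. The other scalings and tools called some of them. Median-of-ratios scaling and edgeR each gave Sec23a, Sec23b, Sec24a and Sec24d higher and Sec24c lower. DESeq2 gave 5 higher and 0 lower, and voom with quality weights gave 6 higher and 1 lower. Among all 12712 genes, these gave 2843, 2818, 2581 and 3148 higher and 2611, 2650, 2329 and 2972 lower, in that order. Ratios of related genes within a library do not depend on its scaling, and 8 were compared by an exact two-sided permutation test, for which 3 libraries against 3 cannot give a p below 0.1. In 7 of the 8 every day 7 ratio lay above every day 0 ratio (exact permutation p = 0.1 each, 0.114 after adjustment over the 8), and the exception was Sec23a to Sec23b. Which gene of a pair was divided by the other was a choice, so the shared direction is not a result. The pairs were chosen with earlier results known, and the share of all gene pairs that separate in this way was not computed.

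Sec23a and Sec23b encode the inner-coat subunits that activate the Sar1 GTPase, and Sec23a (chr12:58958383-59012017) had 60.8, 56.7 and 45.3 RPKM on day 0, 52.6, 53.6 and 54.8 on day 4, and 62.3, 56.0 and 56.7 on day 7. Sec23b (chr2:144556229-144590749) had 14.5, 12.4 and 10.7 RPKM on day 0, 11.7, 12.5 and 13.8 on day 4, and 12.9, 13.7 and 15.0 on day 7. For both, day 7 overlapped day 0 (0.11 and 0.15 on the log2 scale). The ratio of Sec23a to Sec23b was 4.21, 4.58 and 4.24 at day 0, 4.5, 4.28 and 3.98 at day 4, and 4.83, 4.09 and 3.79 at day 7, so its stages overlapped and its log2 difference of −0.04 changed sign when day 7 replicate 3 was left out (exact permutation p = 0.8). Of Sec23a's exonic length 8.9% overlaps Gm17529 on the opposite strand.

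Sec24 proteins bind the cargo, and mammals have a pair of closer relatives in each of Sec24a with Sec24b and Sec24c with Sec24d. Sec24d (chr3:123267455-123365641) had 54.7, 50.5 and 42.7 RPKM on day 0, 53.5, 58.8 and 57.6 on day 4, and 64.6, 60.9 and 62.3 on day 7. Its day 7 libraries lay above both other stages (log2 fold change 0.35 ± 0.15 (SE), limma adjusted p = 0.0761). Sec24c (chr14:20674308-20694852) had 30.0, 31.4 and 26.0 RPKM on day 0, 25.9, 24.2 and 26.0 on day 4, and 24.3, 21.9 and 24.3 on day 7. It was lower than day 0 in every library of both later stages, with 26.03 against 26.05 RPKM in the nearest libraries of day 4 and day 0 (log2 fold change -0.31 ± 0.15 (SE), limma adjusted p = 0.124). The ratio of Sec24d to Sec24c was 1.82, 1.60 and 1.64 at day 0, 2.06, 2.43 and 2.21 at day 4, and 2.66, 2.78 and 2.56 at day 7, and none of its stages overlapped.

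The other pair was scarcer. Sec24a (chr11:51692264-51763634) had 1.95, 2.11 and 1.98 RPKM on day 0, 2.51, 2.02 and 2.42 on day 4, and 2.69, 2.30 and 2.44 on day 7, with day 7 above day 0 (log2 fold change 0.29 ± 0.17 (SE), limma adjusted p = 0.192). Sec24b (chr3:129982759-130061553) had 4.70, 5.32 and 5.21 RPKM on day 0, 5.35, 4.89 and 5.12 on day 4, and 4.94, 4.06 and 3.98 on day 7, with overlapping stages (log2 fold change -0.23 ± 0.17 (SE), limma adjusted p = 0.312). Their ratio was 0.414, 0.396 and 0.38 at day 0, 0.47, 0.414 and 0.473 at day 4, and 0.545, 0.568 and 0.613 at day 7, higher at day 7 than at either earlier stage in every library.

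Sar1a and Sar1b encode the GTPases that start coat assembly. Sar1a (chr10:61680299-61693297) had 153, 144 and 93.3 RPKM on day 0, 133, 126 and 137 on day 4, and 129.6, 117 and 143 on day 7. Sar1b (chr11:51763687-51791925), known for chylomicron secretion in the gut, had 41.6, 40.8 and 23.0 RPKM on day 0, 36.4, 34.6 and 37.9 on day 4, and 41.0, 33.8 and 42.1 on day 7. The stages of both genes overlapped, and day 0 replicate 3 was the lowest library of each (0.03 and 0.19 on the log2 scale). The ratio of Sar1b to Sar1a was 0.272, 0.283 and 0.247 at day 0, 0.274, 0.274 and 0.278 at day 4, and 0.316, 0.289 and 0.293 at day 7, a small shift in which day 7 exceeded both other stages. The outer-coat genes Sec13 and Sec31a had log2 fold changes of 0.07 and 0.10 (limma adjusted p = 0.765 and 0.690).

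**Figure D4:**
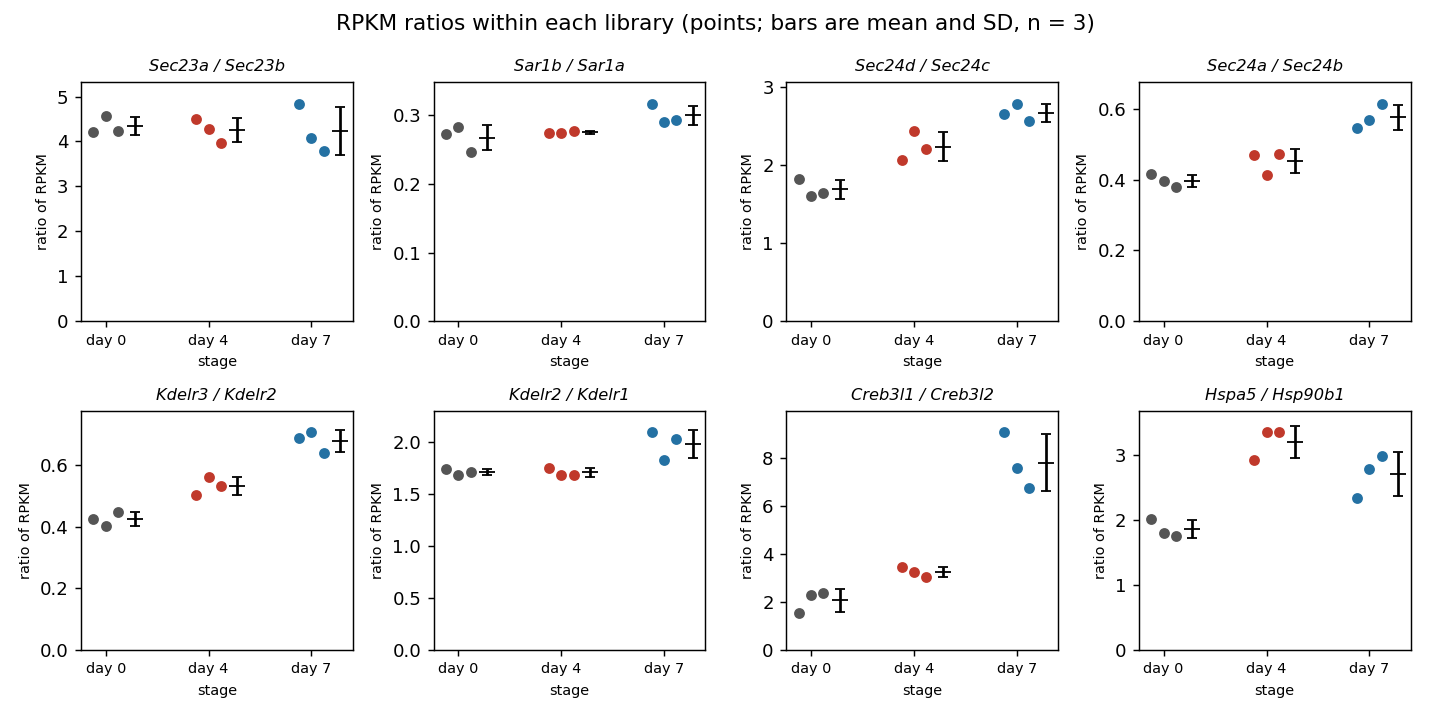
RPKM ratios of 8 gene pairs within each library (points, replicates 1 to 3 from left to right), with the mean and SD of the 3 libraries of each stage beside them; each y axis starts at 0. Sec23a to Sec23b overlaps across stages, whereas Creb3l1 to Creb3l2 goes from 1.52 to 2.38 at day 0 to 6.75 to 9.07 at day 7.

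Of the KDEL receptors Kdelr3 and Kdelr2 rose, and Kdelr1 and Mia3 did not pass. Median-of-ratios scaling called Kdelr1 higher as well (22.4% of all genes). Kdelr3 (chr15:79516411-79527739), whose promoter carries the UPRE core shown above, had 81.9, 72.7 and 59.8 RPKM on day 0, 106, 113 and 117 on day 4, and 173, 151 and 146 on day 7. The stages lay in the order of time without overlap (log2 fold change 1.14 ± 0.16 (SE), limma adjusted p = 6.34e-08). Kdelr2 (chr5:143403838-143421901) had 193, 181 and 134 RPKM on day 0, 210.0, 201 and 219.9 on day 4, and 252, 213 and 229 on day 7, with both later stages above day 0 and overlapping each other (log2 fold change 0.46 ± 0.16 (SE), limma adjusted p = 0.0225). That call was lost with the RPKM table (adjusted p = 0.0543), with no filter on level (0.0605), without day 7 replicate 1 (0.134) and without day 7 replicate 3 (0.0854). Kdelr1 (chr7:45872772-45883732) had 111, 107 and 78.1 RPKM on day 0, 119.9, 119.5 and 131 on day 4, and 121, 117 and 113 on day 7, again with both later stages above day 0, and did not pass (log2 fold change 0.26 ± 0.16 (SE), limma adjusted p = 0.226).

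The ratio of Kdelr3 to Kdelr2 was 0.424, 0.403 and 0.448 at day 0, 0.503, 0.561 and 0.532 at day 4, and 0.688, 0.707 and 0.64 at day 7, so that the stages did not overlap, while that of Kdelr2 to Kdelr1 was 1.74, 1.68 and 1.71 at day 0, 1.75, 1.68 and 1.68 at day 4, and 2.09, 1.83 and 2.02 at day 7, higher at day 7 than at either earlier stage in every library. Kdelr2 remained the most abundant receptor per length in every library. Mia3 (TANGO1), the exit-site protein that helps to load procollagen into carriers (chr1:183326725-183369553), had 41.1, 39.8 and 30.3 RPKM on day 0, 33.8, 37.7 and 37.9 on day 4, and 34.2, 32.2 and 33.4 on day 7. Its day 7 values lay within the day 0 range, and it did not pass (log2 fold change -0.14 ± 0.16 (SE), limma adjusted p = 0.520). The ratio of Creb3l1 to Creb3l2 was 1.52, 2.26 and 2.38 at day 0, 3.43, 3.25 and 3.02 at day 4, and 9.07, 7.60 and 6.75 at day 7, and that of Hspa5 to Hsp90b1 was 2.02, 1.80 and 1.76 at day 0, 2.93, 3.35 and 3.35 at day 4, and 2.35, 2.79 and 3.00 at day 7, the first without overlap between any stages and the second with day 4 and day 7 overlapping above day 0.

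Day 4 is described by direction only. The day 4 libraries come from a table of their own and were read more deeply, so their values are set side by side with the others without a test; day 4 and day 7 share the day 0 libraries. Every day 4 library was above every day 0 library for 23 of the 44 genes (21.1% of all genes compared) and below for 1, Sec24c (22.2%). Every day 7 library exceeded every day 4 library for 9 genes (13.8%), and the reverse held for 5 (24.6%). The 5, Hspa5, Hsp90b1, Syvn1, Atf6 and Creb3l2, were highest at day 4 in every library, as were 7.77% of all genes. Another 7, Dnajb9, Ern1, Creb3l1, Sec61b, Ssr3, Ssr4 and Kdelr3, were higher at each step in every library, as did 3.09% of all genes. A list of 10 immediate early genes, which respond to dissociation, was above day 0 in every day 4 library for all 10 genes (summed 298.1 to 361.7 RPKM against 119.5 to 150.5), and stood at 167.1 to 229.4 at day 7. Its part in the day 4 values was not tested.

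Within day 4 the replicates of the chaperones lay furthest apart of the 6 groups. The highest day 4 library exceeded the lowest by 2.47-fold for Sdf2l1, 2.00-fold for Hspa5, 1.86-fold for Manf, 1.84-fold for Hyou1 and 1.74-fold for Hsp90b1, where the median of all genes was 1.16-fold. For Hspa5 that spread was wider than in 97.9% of genes. The same ratio was 1.04 for Sec23a, 1.05 for Sec31a and 1.06 for Creb3l1. The median of that ratio was 1.61 over the chaperones, 1.42 over ERAD and 1.11 over the translocon. It was 1.102 over the KDEL receptors and Mia3, 1.095 over the COPII genes and 1.09 over the sensors and factors. Replicate 1 was lowest and replicate 2 highest for 12 of the 13 chaperones, and the exception, Dnajb9, was highest in replicate 3. That order of libraries held for 17.6% of all genes, for 8 of 12 oligosaccharyltransferase genes, for 8 of 12 secreted bone matrix genes, for 9 of 17 other ER folding factors, for 8 of 25 cytosolic and mitochondrial chaperones, for 1 of 10 COPII genes and for 0 of 10 immediate early genes. In the remaining groups it held for 2 of 4 ERAD genes, 2 of 6 sensors and factors, 2 of 7 translocon genes and 0 of 4 KDEL receptor and Mia3 genes. The sum of 8 chondrocyte markers was 244.8 RPKM in day 4 replicate 1, 146.0 in replicate 2 and 167.9 in replicate 3. Most of that difference lay in Col2a1, at 145.2, 33.9 and 64.3 RPKM, whereas Col11a2, at 67.1, 85.6 and 76.3, had the order of the chaperones. Col9a1, at 6.70, 3.29 and 4.08, and Comp, at 6.10, 3.15 and 3.72, had the order of Col2a1. The other chondrocyte markers had neither order. The summed chaperones stood at 2322, 3962 and 3180 RPKM in the same libraries. Replicate 1 also had the highest sum of chondrocyte markers at day 0 (501.1, 178 and 195.6 RPKM) and at day 7 (324.5, 202 and 211.2). The part of the chondrocyte markers in the chaperone values was not tested at any stage. Leaving out day 4 replicate 1 raised the number of genes lower at day 7 than at day 4 in every library from 5 to 18. A condition over fewer libraries is easier to meet, so this count could not fall. The share of all genes without that library was not computed.

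**Figure D5:**
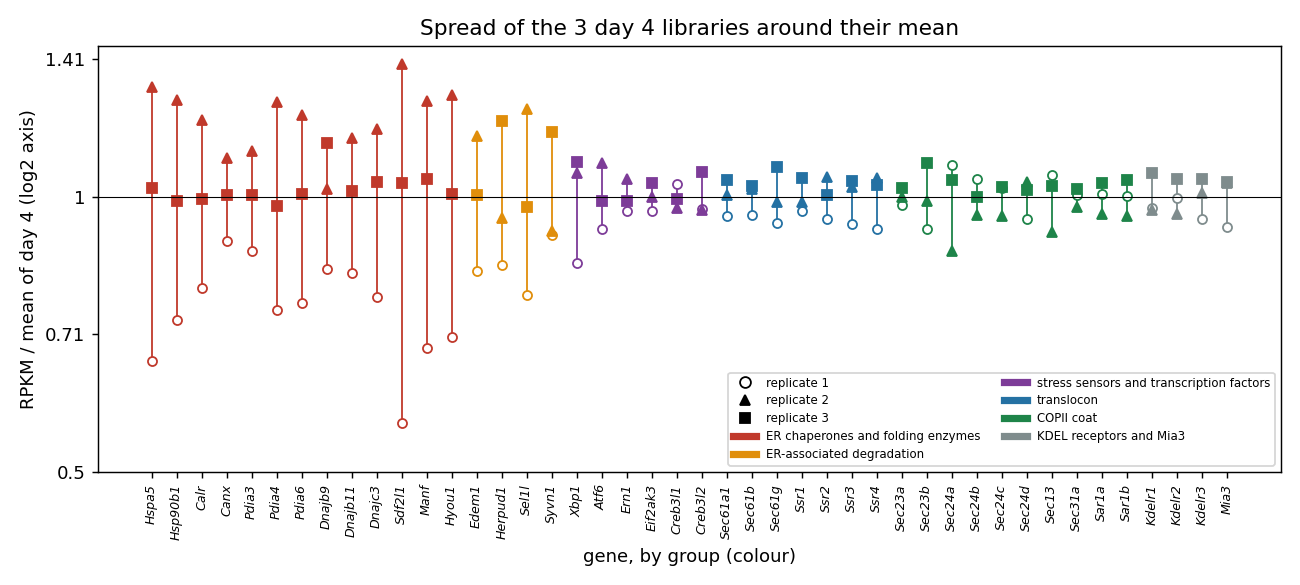
RPKM of each of the 44 genes in the 3 day 4 libraries, divided by the day 4 mean of the gene (y axis, log2 scale; colour by group). Circles are replicate 1, triangles replicate 2 and squares replicate 3; replicate 1 is lowest and replicate 2 highest for 12 of 13 chaperones, whereas most translocon and COPII genes stay close to 1.

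The ERSE and ERSE-II carriers were read against the other genes by their values only. The 9 carriers had a median day 4 to day 0 fold of 1.68 (0.901 to 2.92), and the 28 other matched genes 1.18 (0.870 to 2.89). Within the chaperones the order was the reverse, 1.36 for the 7 carriers and 1.81 for the 4 others, Dnajb9, Pdia3, Pdia4 and Sdf2l1. From day 0 to day 7, 2 of the 9 carriers, Hspa5 and Herpud1, and 11 of the 28 others rose (12.6% of all genes). Median-of-ratios scaling also called the carriers Calr, Hsp90b1, Dnajb11 and Syvn1 higher, and more of the others too (22.4% of all genes). The counts therefore depend on the scaling. The 3 UPRE core carriers, shown above with Sec23a, had log2 fold changes of 1.14 for Kdelr3, 0.35 for Sec24d and 0.11 for Sec23a, of which the first passed.

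The machinery was also set against the RNA of its cargo. The summed RPKM of 12 secreted bone matrix genes was 8874 to 10380 at day 0, 20610 to 23790 at day 4 and 20770 to 25570 at day 7. The chaperones came to 15.4% to 21.8% of that sum at day 0, 11.3% to 16.7% at day 4 and 8.25% to 11.5% at day 7, so day 7 lay below day 0 without overlap. The translocon came to 4.11% to 5.53% at day 0, 2.75% to 2.90% at day 4 and 2.95% to 3.40% at day 7. The COPII genes came to 4.63% to 6.29%, 2.08% to 2.52% and 2.18% to 2.69%. These shares are taken within a library and do not depend on its scaling. Because the cargo sum rose, a set of genes with a steady level also falls as a share of it. The cytosolic and mitochondrial chaperones, for example, summed to 1658 to 2225 RPKM at day 0 and 1694 to 1799 at day 7. The lower shares are therefore not particular to the secretory genes. Hspa5 itself made up 19.99% to 21.6% of the ER chaperone sum at day 0, 30.6% to 35.8% at day 4 and 24.4% to 28.4% at day 7, without overlap between stages.

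The rest of the pathway was read from 8 further lists. Of their 106 genes, 103 were tested and 32 were higher and 4 lower at day 7 (12.6% and 18.6% of all genes), with a median log2 fold change of 0.20. Median-of-ratios scaling gave 58 higher and 8 lower (22.4% and 20.5% of all genes). Among genes of the signal recognition particle, its receptor and signal peptidase, 3 of 12 rose, led by Sec11c, a catalytic signal peptidase subunit (6.25 ± 1.73 RPKM on day 0, 11.8 ± 1.64 on day 4 and 12.7 ± 1.24 on day 7; log2 fold change 1.04 ± 0.18 (SE), limma adjusted p = 9.66e-06). Of the oligosaccharyltransferase that attaches N-glycans, 5 of 12 rose, led by the small subunit Ost4 (22.9 ± 2.47 RPKM on day 0, 37.5 ± 3.01 on day 4 and 37.5 ± 5.80 on day 7; log2 fold change 0.69 ± 0.17 (SE), limma adjusted p = 9.73e-04). Magt1, a subunit with thioredoxin-like activity, fell (34.9 ± 9.20 RPKM on day 0, 32.6 ± 5.84 on day 4 and 25.4 ± 1.15 on day 7; log2 fold change -0.42 ± 0.17 (SE), limma adjusted p = 0.0457). The Magt1 call was lost under 9 alternatives, among them without day 0 replicate 1 (log2 fold change -0.26, limma adjusted p = 0.317). None of 5 other translocon subunits, which include Sec62, Sec63 and Tram1, passed limma, and before adjustment 0 did so at p under 0.05, with 1 higher under median-of-ratios scaling.

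Of 17 other folding factors 8 rose and 1 fell (12.6% and 18.6% of all genes). Ero1l, the oxidase that reoxidizes protein disulphide isomerases, had the largest rise (18.8 ± 3.97 RPKM on day 0, 64.1 ± 30.1 on day 4 and 73.7 ± 14.6 on day 7; log2 fold change 1.97 ± 0.17 (SE), limma adjusted p = 8.10e-14). Uggt1, the glucosyltransferase that returns misfolded glycoproteins to Calr and Canx, fell (28.8 ± 2.72 RPKM on day 0, 19.5 ± 0.651 on day 4 and 19.1 ± 0.57 on day 7; log2 fold change -0.58 ± 0.15 (SE), limma adjusted p = 0.00224). Of 16 other ERAD genes 2 rose and 1 fell, no more than the shares of all genes. Derl3, a member of the derlin family, was among those that rose, at 0.609 ± 0.126 RPKM on day 0, 7.50 ± 4.80 on day 4 and 1.63 ± 1.29 on day 7 (log2 fold change 0.85 ± 0.30 (SE), limma adjusted p = 0.0271). Vcp, the ATPase that extracts substrates, fell, at 15.3 ± 1.82 RPKM on day 0, 11.9 ± 0.41 on day 4 and 10.4 ± 1.29 on day 7 (log2 fold change -0.56 ± 0.16 (SE), limma adjusted p = 0.0054). The Derl3 value rests on day 7 replicate 3, without which it was 0.37 (limma adjusted p = 0.488), and its call was also lost under median-of-ratios scaling (0.93, adjusted p = 0.0689). Vcp lost its call without day 7 replicate 2 (-0.46, limma adjusted p = 0.0695). Of 12 other stress signalling genes tested 5 rose and 1 fell, with Creb3l3, another Creb3-like factor known from liver, at 0.199 ± 0.114 RPKM on day 0, 1.76 ± 0.28 on day 4 and 1.79 ± 0.561 on day 7 (log2 fold change 2.43 ± 0.27 (SE), limma adjusted p = 2.18e-10). Mbtps1, the site-1 protease that cleaves ATF6 and the Creb3-like factors, was the 1 that fell (60.7 ± 6.01 RPKM on day 0, 47.8 ± 3.28 on day 4 and 45.7 ± 2.57 on day 7; log2 fold change -0.41 ± 0.15 (SE), limma adjusted p = 0.0372). Its call was lost without any single library other than day 0 replicate 3 (adjusted p from 0.0801 to 0.172).

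Of 18 genes of COPII assembly and cargo receptors 7 rose and 0 fell by limma (0 at an unadjusted p under 0.05 and 0 under median-of-ratios scaling), led by the p24 cargo receptor Tmed3 (45.3 ± 7.41 RPKM on day 0, 72.2 ± 4.48 on day 4 and 85.9 ± 10.02 on day 7; log2 fold change 0.93 ± 0.16 (SE), limma adjusted p = 5.49e-06). Of 11 genes of the COPI coat, which carries retrieval from the Golgi, 2 rose, led by Copz2 (38.0 ± 2.25 RPKM on day 0, 58.6 ± 3.06 on day 4 and 59.9 ± 5.80 on day 7; log2 fold change 0.65 ± 0.15 (SE), limma adjusted p = 7.28e-04). The cytosolic and mitochondrial chaperones, which serve other compartments, had 2 of 25 higher and 4 lower (12.6% and 18.6% of all genes) and a median log2 fold change of −0.08. Hspb1, a small heat shock protein, rose (log2 fold change 0.72 ± 0.22 (SE), limma adjusted p = 0.00873; adjusted p = 0.0546 and 0.0593 without day 7 replicates 1 and 3), and Hsph1, a cytosolic exchange factor for Hsp70, fell (log2 fold change -1.26 ± 0.16 (SE), limma adjusted p = 2.03e-08).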

How the data were processed

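RNA was extracted with RNeasy columns and depleted of ribosomal RNA with Ribo-Zero Gold. Per the labels and methods, the authors aligned reads to mouse GRCm38 (Ensembl release 76) with STAR 2.0.4b and assigned reads that aligned to a single place and a single gene with featureCounts. The authors deposited CPM, which scale the reads of a gene to the library's total on genes, and RPKM, which also divide by gene length, in 1 table for day 0 and day 7 and in another for day 4. All 18 columns of values matched a sample. Genes were joined by Ensembl identifier, and repeated lines, which were identical, were used once. In every library 100% of CPM were whole multiples of 1 read within 0.01, so reads were recovered for alternatives; the lowest value of any of the 44 genes rests on 28 reads.

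For day 7 against day 0, limma 3.58.1 (R 4.3.3) was run with its trended prior on log2(CPM + 0.5). It covered the 12712 genes whose CPM averaged 1 or more over the day 0 and day 7 libraries, with Benjamini-Hochberg adjustment for all of them. Fold changes on that scale are understated for low genes. The variance prior had 42.9 degrees of freedom against 4 residual, so the spread used in each test comes mainly from other genes. The script was tested on simulated data. Replicates of a stage had Spearman correlations of 0.9876 to 0.9942. "Above" or "below" between stages means that every library of 1 stage exceeded every library of the other; 2 of the 12712 genes could not be compared on RPKM. The 44 genes, the other lists and the pairs were chosen with earlier results of these data known, so no set test and no p over a list is given. Values in every library are given for the sensors and factors, the paired genes, Mia3, Hspa5 and up to 3 of the largest rises in each group; from each other list the largest rise and fall are named. The results of the marker lists beyond those in the text are as follows: 3 of 4 osteoclast genes tested were higher and 1 lower, 3 of 8 chondrocyte genes higher and 3 lower, the 1 endothelial gene tested (Eng) lower, 1 of 2 adipocyte genes higher, and the 1 plasma and B cell gene tested passed in neither direction. The calls of Eng and of Mmp9, the lower osteoclast gene, were lost under median-of-ratios scaling (limma adjusted p = 0.125 and 0.0723). Promoters were taken from RefSeq (GRCm38.p6), leaving out chromosome 18, and gene coordinates and overlaps from GENCODE M21 (GRCm38). Alternatives were other pseudocounts, filters, scalings, tables and tools (edgeR 4.0.16, DESeq2 1.42.0), the replicate number as a block, and leaving out each library.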

Additional observations from a re-analysis of the deposited data

How the results depend on the processing

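Of the 18 genes higher at day 7, 14 kept that call under all 19 alternatives; Atf6, Kdelr2, Ssr1 and Ssr3 lost it under 4 or 5 of them. The count of genes higher at day 7 became 30 with median-of-ratios scaling, TMM scaling and edgeR, 32 with DESeq2 and 33 with voom and quality weights; leaving out 1 library gave 14 (without day 7 replicate 1) to 20. The count lower became 1 with the first 2 scalings, edgeR and DESeq2, 2 with voom and quality weights, and 4 (Canx, Creb3l2, Sec24c and Mia3) when CPM were rescaled to the reads outside the 6 ribosomal-like gene models, which was chosen after seeing the data; leaving out 1 library gave 0 to 3, the 3 without day 0 replicate 3. Other pathway genes went from 32 to 58 higher and from 4 to 8 lower with median-of-ratios scaling. All genes went from 1602 to 2843 higher and from 2369 to 2611 lower with it. On recovered reads edgeR called 2818 of all genes higher and 2650 lower, where limma called 1602 and 2369. DESeq2 called 2581 and 2329, and voom with quality weights 3148 and 2972.

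Genes below day 0 in every day 4 library numbered 1 to 7 when 1 library was left out (7 without day 0 replicate 3) and 2 without the ribosomal-like models. Genes above day 0 at day 4 numbered 23 to 33. Genes above day 4 at day 7 numbered 9 to 15 when 1 library was left out (15 without day 7 replicate 2). They numbered 15 with median-of-ratios scaling over 9 libraries, also chosen after seeing the data. The share of all genes went from 13.8% to 23.4% with that scaling. Genes below day 4 at day 7 numbered 5 to 18 (18 without day 4 replicate 1, 9 and 11 without day 7 replicates 1 and 3) and 8 without the ribosomal-like models. Leaving out a library makes each of these conditions easier to meet, so the counts could only stay or rise. The matching shares of all genes were not computed.

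Directions turned for 9 genes that had not passed. With 1 library left out, the log2 fold change ran from −0.0802 to 0.194 for Dnajc3, −0.0763 to 0.218 for Pdia4, −0.0659 to 0.251 for Pdia6, −0.197 to 0.158 for Sar1a, −0.0868 to 0.334 for Sar1b, −0.0594 to 0.179 for Sec13 and −0.011 to 0.201 for Sec23a, the lowest without day 0 replicate 3 in each, from −0.01 (without day 7 replicate 1) to 0.127 for Eif2ak3 and from −0.0887 to 0.0599 for Sel1l. Without the ribosomal-like models it became −0.0438 for Eif2ak3, −0.0561 for Sar1a and −0.00739 for Sec13. Sel1l became 0.101, 0.0982, 0.0994, 0.103 and 0.0857 with median-of-ratios, TMM, edgeR, DESeq2 and voom with quality weights. The causes of these changes were not tested. The log2 difference of the Sec23a to Sec23b ratio ran from −0.141 to 0.0347 over the libraries left out (0.0347 without day 7 replicate 3). The smallest of the other 7, Sar1b to Sar1a, ran from 0.11 to 0.208. Those 7 could not change sign, because every day 7 ratio already lay above every day 0 ratio.

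Same-numbered libraries of day 0 and day 7 had correlations of their deviations of −0.0172, −0.181 and −0.444. The sum of the chondrocyte markers, however, was highest in replicate 1 at both stages (501.1, 178 and 195.6 RPKM at day 0, 324.5, 202 and 211.2 at day 7). Whether same-numbered libraries share a source was not stated, and these values do not settle it. With the replicate number as a block 17 genes were higher and 0 lower, Atf6 being the call lost. The block leaves a difference of stage means as it is, so the ratios could not change and this is no check of them. Depth bears most on Sec61g, whose lowest library rests on 28 reads. The other named genes were put through the same alternatives, chosen after seeing the data, and none changed direction, though several lost their call in some of them.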

Other observations

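Of 12 other stress signalling genes tested, 5 were higher and 1 lower at day 7, where 12.6% and 18.6% of all genes were. The members of that list described here were picked after their values were seen, so their number says nothing of the list. Ddit3 (CHOP), a stress-induced transcription factor, stood at 84.4 ± 7.81 RPKM on day 0, 134 ± 21.1 on day 4 and 138 ± 12.5 on day 7 (mean ± SD, n = 3; log2 fold change 0.71 ± 0.15 (SE), limma adjusted p = 2.39e-04). Chac1, a glutathione-degrading enzyme induced through the PERK branch, stood at 48.8 ± 2.53 RPKM on day 0, 86.5 ± 5.10 on day 4 and 85.1 ± 4.68 on day 7 (log2 fold change 0.80 ± 0.15 (SE), limma adjusted p = 3.80e-05). Atf3 stood at 4.59 ± 1.16 RPKM on day 0, 16.1 ± 1.02 on day 4 and 10.9 ± 2.22 on day 7 (log2 fold change 1.21 ± 0.20 (SE), limma adjusted p = 2.27e-06), and Ppp1r15a (GADD34), which restores translation, at 14.5 ± 1.1 RPKM on day 0, 38.5 ± 4.64 on day 4 and 26.5 ± 1.31 on day 7 (log2 fold change 0.87 ± 0.16 (SE), limma adjusted p = 1.52e-05). Trib3, another stress-induced gene, was below day 0 in every day 4 library and did not pass at day 7, although median-of-ratios scaling called it higher (66.4 ± 14.0 RPKM on day 0, 48.3 ± 6.44 on day 4 and 75.4 ± 5.95 on day 7; log2 fold change 0.20 ± 0.16 (SE), limma adjusted p = 0.363).

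Derl3 and Creld2 of the wider pathway, also chosen after their values were seen, both carry an ERSE in the promoter window and had their highest mean at day 4. Derl3 had 0.747, 0.501 and 0.58 RPKM on day 0, 3.19, 12.7 and 6.64 on day 4, and 0.931, 0.841 and 3.11 on day 7, and Creld2, a lumenal disulphide isomerase-like protein, had 43.7, 38.4 and 29.2 RPKM on day 0, 85.8, 175 and 136 on day 4, and 74.5, 76.1 and 95.5 on day 7. In both genes day 4 replicate 1 was the lowest and replicate 2 the highest day 4 library, the order seen in 12 of the 13 chaperones, and for Creld2 day 7 remained above day 0 in every library (log2 fold change 1.15 ± 0.16 (SE), limma adjusted p = 1.59e-07).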
